A study of Homo sapiens with 6 samples.

Results

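The 10 genes described here encode alpha and beta tubulin isotypes, 4 alpha genes (TUBA1A, TUBA1B, TUBA1C and TUBA4A) and 6 beta genes (TUBB, TUBB2A, TUBB2B, TUBB3, TUBB4B and TUBB6). They were taken by symbol from a deposited table of 58233 gene rows, each symbol matched exactly 1 row, and all 10 had at least 1 TPM in at least 3 libraries, the condition for being tested. Values are in TPM, a unit that divides a row's reads by its length and is meant to give each library the same total. The totals of the rows used here were near each other but not equal. HGC-27, a human line of undifferentiated gastric cancer, was sampled 72 h after transfection with a mixture of siRNAs against STRN3 (3 libraries labelled siSTRN3) or with a negative control siRNA (3 libraries labelled siNC). STRN3 encodes striatin-3, a subunit of the STRIPAK phosphatase complex. All 6 libraries come from this line, grown in the same medium with serum and transfected with the same lipid reagent. Whether libraries of 1 treatment stem from different cultures is not stated in the labels, and the p-values therefore reflect a spread between libraries that may be technical only.

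Microtubules are hollow polymers of alpha and beta tubulin, which are folded by the chaperonin CCT with its partner prefoldin, joined by dedicated cofactors into a dimer, and added to growing ends. Vertebrates carry several genes for each subunit, whose proteins differ mainly in a short acidic tail at the carboxyl end, where tubulin is modified and where many motors and associated proteins bind. Cells also adjust tubulin messages to the amount of free dimer: the factor TTC5 binds the first residues of a tubulin chain as it leaves the ribosome and brings in SCAPER and the CCR4-NOT complex, which degrade the message. TUBB3 and TUBB2B are known for high levels in neurons, while TUBA1B, TUBA1C, TUBB and TUBB4B are abundant in dividing cells of most tissues.

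The first 30 coding bases of each member are shown because they hold the stretch read by that feedback; capitals mark the first 4 codons, whose peptide TTC5 binds. Sequences are those of the principal GENCODE release 29 transcripts (GRCh38), read 5′ to 3′ on the coding strand.
TUBA1A: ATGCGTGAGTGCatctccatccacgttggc
TUBA1B: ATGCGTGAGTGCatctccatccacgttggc
TUBA1C: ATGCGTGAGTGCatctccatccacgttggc
TUBA4A: ATGCGTGAATGCatctcagtccacgtgggg
TUBB: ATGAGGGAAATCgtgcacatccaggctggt
TUBB2A: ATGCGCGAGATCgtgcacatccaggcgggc
TUBB2B: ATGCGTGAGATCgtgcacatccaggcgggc
TUBB3: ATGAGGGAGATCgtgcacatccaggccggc
TUBB4B: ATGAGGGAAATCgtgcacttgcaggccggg
TUBB6: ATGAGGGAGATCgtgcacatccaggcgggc
The 4 alpha genes had 2 spellings of these 4 codons and the 6 beta genes had 4. In the 4 alpha genes the first coding exon holds 3 bases, the start codon, so that the stretch spans an intron in the genome, and in the 6 beta genes it holds 57 bases.

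The coding ends are shown for the 5 most abundant beta members, since this is where many isotypes differ, although not all do. These are the last 60 bases before the stop codon, and capitals mark in-frame GAA and GAG, the glutamate codons.
TUBB: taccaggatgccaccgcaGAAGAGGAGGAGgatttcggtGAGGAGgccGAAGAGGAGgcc
TUBB2A: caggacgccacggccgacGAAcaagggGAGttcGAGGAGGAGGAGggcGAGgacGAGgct
TUBB2B: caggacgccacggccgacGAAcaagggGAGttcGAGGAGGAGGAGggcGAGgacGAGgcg
TUBB3: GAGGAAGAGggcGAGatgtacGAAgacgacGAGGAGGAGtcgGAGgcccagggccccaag
TUBB4B: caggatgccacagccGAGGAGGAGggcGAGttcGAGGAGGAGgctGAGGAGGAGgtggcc
Of the last 20 codons, 10 were GAA or GAG in TUBB4B, 9 in TUBB and TUBB3, and 8 in TUBB2A and TUBB2B. The ends of TUBB2A and TUBB2B differ only in the last base. Among the alpha genes, TUBA1A and TUBA1B have the same last 60 bases. Whole coding sequences were 80.9% to 98.1% identical between members of the same subunit and 52.2% to 53.9% between alpha and beta members.

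TUBA1B (chromosome 12, 49127782 to 49131397, minus strand, GRCh38), TUBA1A (49184796 to 49189324, minus strand) and TUBA1C (49188736 to 49274603, plus strand) lie side by side, and the spans of TUBA1A and TUBA1C overlap. TUBB2A (chromosome 6, 3153669 to 3157526, minus strand) and TUBB2B (3224261 to 3231730, minus strand) are neighbours, and TUBB lies farther along the same chromosome (30720201 to 30725426, plus strand). TUBB4B lies on chromosome 9 (137241213 to 137243707, plus strand), TUBB3 on chromosome 16 (89921392 to 89938761, plus strand), TUBB6 on chromosome 18 (12307669 to 12344320, plus strand) and TUBA4A on chromosome 2 (219249711 to 219278170, minus strand).

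Properties of the libraries bear on every value below. STRN3 itself was no lower under the siSTRN3 label (5.11 ± 0.411 TPM, against 4.22 ± 0.951 TPM in siNC libraries; SD, n = 3 each; log2 fold change relative to the median row 0.77 ± 0.13 SE, limma, adjusted p = 0.00894), so the groups are named by label and each direction is that of libraries labelled siSTRN3 over siNC libraries. Rows of the nuclear ribosomal RNA repeat held 42.2% to 43.5% of the total in libraries labelled siSTRN3, against 16.4% to 17.8% in siNC libraries, and the median log2 fold change of 13004 tested rows was -0.57 as deposited; the part of this in the results was not tested. Levels are therefore given as deposited, and fold changes are given after each library was multiplied by 1 factor that made the median tested row equal in all 6 libraries, called relative to the median row, and the words rose and fell refer to that scale. Ratios of isotypes within a library do not depend on this factor. Of the markers examined, the 5 epithelial genes EPCAM, CDH1, KRT8, KRT18 and KRT19 summed to 0.96 to 1.42 TPM in libraries labelled siSTRN3, against 1.32 to 1.93 TPM in siNC libraries, 4 of the 6 gastric genes (TFF1, TFF2, MUC5AC and GKN1) were listed at 0 in all libraries, and the mesenchymal list was uneven. VIM, the filament vimentin, stood at 1737 ± 18.1 TPM in libraries labelled siSTRN3 and 3011 ± 40.7 TPM in siNC libraries, FN1, fibronectin, at 4.74 ± 1.36 and 7.16 ± 0.749 TPM, and CDH2, N-cadherin, at 0.0367 ± 0.0635 and 0.0100 ± 0.0173 TPM. Relative to the median row VIM fell by 0.14 (limma adjusted p = 0.00882), FN1 stood at 0.020 (0.952), and CDH2 was too low to be tested. The defining epithelial markers of the labelled tissue were thus near 0. The 5 neuronal markers summed to 3.13 to 5.38 TPM in libraries labelled siSTRN3 and 3.55 to 7.12 TPM in siNC libraries. Of these, ELAVL4 was listed at 0 in all 6 libraries. RBFOX3 (2.51 ± 1.71 and 2.20 ± 1.40 TPM) and NEFL (1.25 ± 0.141 and 1.57 ± 0.350 TPM) were tested and did not pass. From the list of lattice and end proteins read below, DCX, MAP2 and STMN2 were also listed at 0, while STMN3, MAP1B and MAPT were present (MAPT at 2.01 and 2.69 TPM). The leukocyte list summed to 1.15 to 1.97 TPM in libraries labelled siSTRN3, against 1.28 to 2.41 TPM in siNC libraries, and the endothelial list stayed at or below 0.02 TPM. The fibroblast list (DCN, LUM and PDGFRB) summed to 121.5 to 131 TPM in libraries labelled siSTRN3, against 255 to 259 TPM in siNC libraries. Of its 3 genes 2 fell, DCN by 0.45 (limma adjusted p = 0.00190) and LUM by 0.25 (0.0211, lost without siSTRN3 replicate 1 or siNC replicate 1 or 3). PDGFRB went the other way and did not pass (0.28, limma adjusted p = 0.183). It had 1.07 ± 0.234 TPM in libraries labelled siSTRN3 and 1.16 ± 0.250 TPM in siNC libraries, a small part of the list sum. The part of these cells or genes in the tubulin values was not tested. In bulk RNA, fewer cells of a type and less RNA per cell cannot be told apart. Depth is unknown because TPM keeps no read number.

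Most tubulin message in these cells came from a few isotypes. TUBA1B alone had 2018, 2031 and 2036 TPM in the libraries labelled siSTRN3, against 3165, 3120.0 and 3210.4 TPM in siNC libraries, and ranked 33rd and 30th of 19400 nuclear protein-coding rows in the 2 groups. TUBB followed with 730.3, 741 and 753 TPM in libraries labelled siSTRN3, against 1123, 1129 and 1123 TPM in siNC libraries. The order of the 10 members by mean was the same in both groups: TUBA1B, TUBB, TUBA1C, TUBB4B, TUBB2B, TUBA1A, TUBB3, TUBB2A, TUBB6 and TUBA4A. Within that order TUBB2B and TUBA1A did not differ beyond their ranges in siNC libraries (238 to 250.5 and 234 to 246 TPM), although their ranges were apart in libraries labelled siSTRN3 (170.2 to 176 and 163 to 166 TPM), and TUBB6 and TUBA4A overlapped in both groups. TUBB3 and TUBB2B, better known from neurons, were both present.

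**Figure D1:**
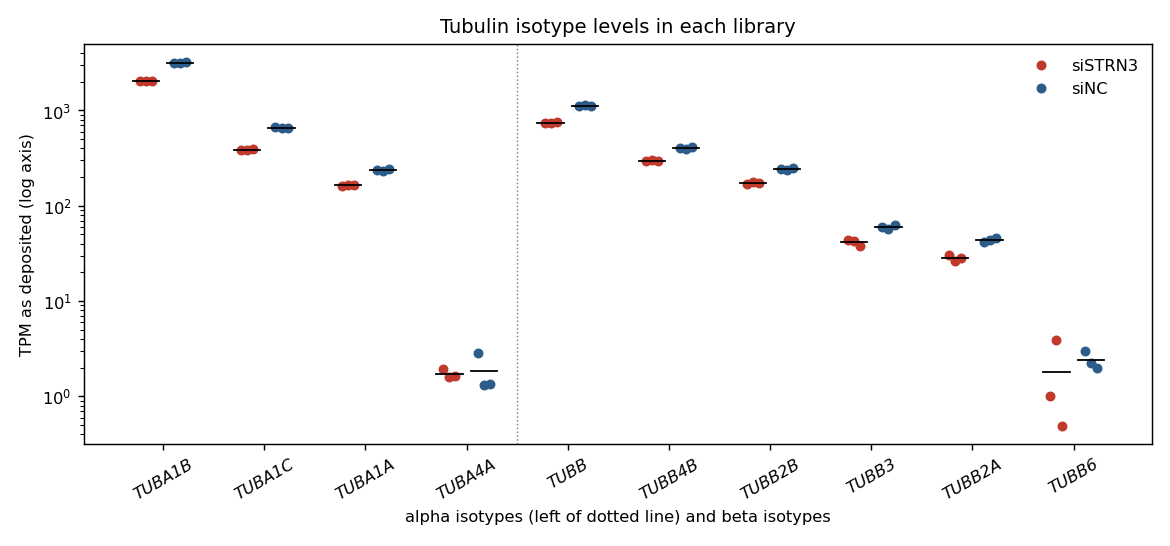
TPM as deposited (log axis) of the 4 alpha and 6 beta isotypes, with 3 points per group for the libraries labelled siSTRN3 (red, left) and siNC (blue, right) and a line at each mean. TUBA1B is the highest in both groups, TUBA4A and TUBB6 stay below 4 TPM, and in the other 8 genes every library labelled siSTRN3 lies below every siNC library.

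As deposited, the summed family took a smaller part of the libraries labelled siSTRN3. The 10 isotypes summed to 3844, 3877 and 3881 TPM in libraries labelled siSTRN3, against 5952, 5870.4 and 6008 TPM in siNC libraries. The log2 difference of the sums was -0.62 ± 0.011 (SE, n = 3 each). The median of -0.57 over all tested rows is not directly comparable with it. That median is understated by low rows on the log2(TPM + 1) scale. Relative to the median row the summed family differed by 0.031 ± 0.022, which is within the range of the libraries: 4805, 4924 and 4811 rescaled TPM in libraries labelled siSTRN3, against 4760.5, 4632 and 4838 rescaled TPM in siNC libraries. The family as a whole thus followed the median row.

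The alpha sum was 2571, 2583 and 2596 TPM in libraries labelled siSTRN3, against 4077, 4009.6 and 4114 TPM in siNC libraries. The beta sum was 1273, 1293 and 1285 TPM in libraries labelled siSTRN3, against 1875, 1861 and 1894 TPM in siNC libraries. Relative to the median row the alpha sum differed by -0.0034 ± 0.022 and the beta sum by 0.10 ± 0.022 on the log2 scale (SE, n = 3 each). Beta sums did not overlap between the groups after rescaling (1591 to 1643 and 1468 to 1525 rescaled TPM), whereas alpha sums did (3214 to 3281 and 3164 to 3313). The ratio of alpha to beta message, which no scaling changes, was 2.02, 1.997 and 2.02 in libraries labelled siSTRN3, against 2.17, 2.15 and 2.17 in siNC libraries. It was lower in every library labelled siSTRN3 than in every siNC library (mean 2.01 ± 0.0133 and 2.17 ± 0.0108; SD, n = 3 each; exact 2-sided permutation test p = 0.1, the smallest that 3 against 3 can give).

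**Figure D2:**
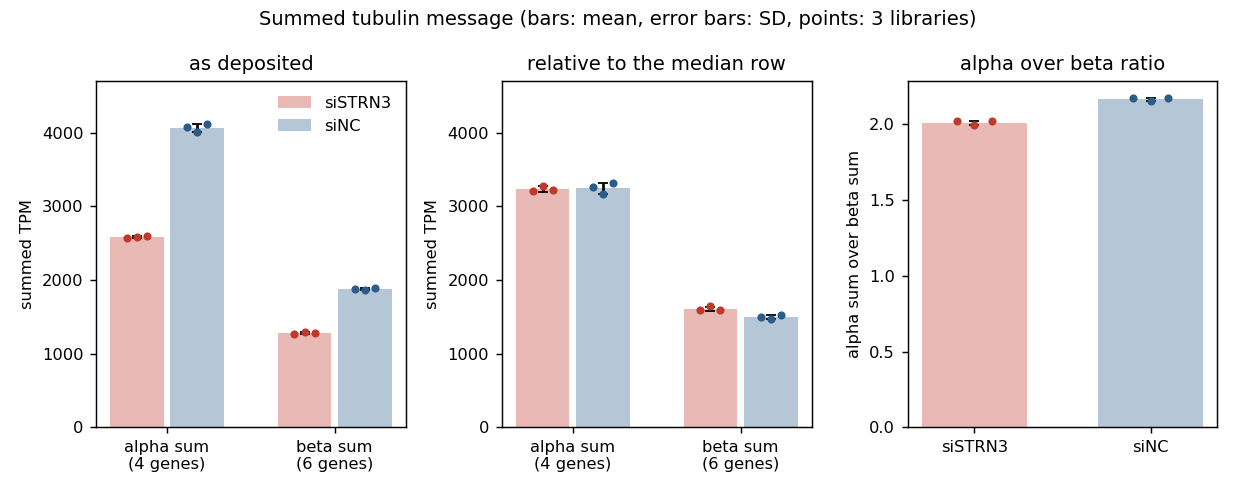
Summed TPM of the alpha and beta isotypes as deposited (left) and after rescaling to the median row (middle), and the alpha over beta ratio (right), with bars for the mean, error bars for the SD and points for the 3 libraries of each group. The deposited sums are lower in libraries labelled siSTRN3, the rescaled alpha sums overlap, and the ratio is 2.01 beside 2.17.

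Relative to the median row, 2 isotypes rose, 1 fell and 7 did not pass the test (limma-trend on log2(TPM + 1), Benjamini-Hochberg adjustment over 13004 rows, threshold 0.05). Over all tested rows 21.3% passed, 11.0% higher and 10.4% lower, so 3 of 10 is close to what the whole table shows. Rescaled values of the groups were apart in 5 of the 10 (42.4% of all tested rows), with 4 higher (20.7% of rows) and 1 lower (21.8% of rows). The median log2 fold change of the 10 was 0.08, beside -0.0063 for all rows. On the deposited scale 8 isotypes passed (81.8% of all rows did), 8 lower (80.8% of rows) and 0 higher (1.01% of rows), so the rises below are rises against the other messages and not in TPM. The deposited groups did not overlap in 8 isotypes (83.3% of rows), all of them lower (82.2% of rows; 1.15% were higher). With TPM recomputed over protein-coding rows, 3 of 10 passed (27.5% of 11152 rows), TUBB4B and TUBB2B higher (9.68% of rows) and TUBA1C lower (17.8% of rows).

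Among the alpha genes, TUBA1C fell. It had 389, 385 and 394 TPM in libraries labelled siSTRN3, against 672, 654 and 657 TPM in siNC libraries. After rescaling the values were 486, 489 and 488 in libraries labelled siSTRN3, against 538, 516 and 529 in siNC libraries, so that all 3 were below all 3. Testing with limma gave a log2 fold change of -0.11 ± 0.024 SE (adjusted p = 0.0202). The call was lost without siSTRN3 replicate 1, 2 or 3 or siNC replicate 1 or 3 (adjusted p = 0.0527 to 0.0740).

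TUBA1B, the main alpha isotype, stood at 0.0091 ± 0.025 (SE, adjusted p = 0.827), with rescaled values of 2522, 2580 and 2523 in libraries labelled siSTRN3, against 2531, 2462 and 2585 in siNC libraries. These ranges overlap. TUBA1A, the alpha isotype known for its role in the developing brain, had 163, 166 and 165 TPM in libraries labelled siSTRN3, against 238, 234 and 246 TPM in siNC libraries. Its rescaled values of 204 to 210.3 lay above the siNC range of 185 to 198, yet its log2 fold change of 0.11 ± 0.033 SE missed the threshold (adjusted p = 0.0568) and passed it without siNC replicate 3 (adjusted p = 0.0482) and with a filter of 5 TPM (adjusted p = 0.0391). TUBA4A, the alpha isotype known from platelets, was close to the detection filter, with 1.96, 1.6 and 1.63 TPM in libraries labelled siSTRN3, against 2.86, 1.31 and 1.35 TPM in siNC libraries. Here siNC replicate 1 was the highest of all 6 libraries. The log2 fold change was 0.39 ± 0.20 SE (adjusted p = 0.201), and without siNC replicate 1 it was 0.61 (adjusted p = 0.0336).

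Among the beta genes, TUBB4B and TUBB2B rose. TUBB4B, a beta isotype found in most tissues and in cilia, had 297, 304 and 292 TPM in libraries labelled siSTRN3, against 403, 391 and 409.9 TPM in siNC libraries. After rescaling it had 371, 386 and 362 in libraries labelled siSTRN3, against 322, 308 and 330.1 in siNC libraries, with no overlap. Its log2 fold change in limma of 0.22 ± 0.037 SE (adjusted p = 0.00918) was the largest among the members that passed, and 82.1% of all tested rows had a lower one. The call held without each library in turn (adjusted p = 0.0170 to 0.0367); with no filter on low values it was lost (log2 fold change 0.12, adjusted p = 0.131).

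TUBB2B, an isotype of neurons in the developing brain, had 170.2, 176 and 174 TPM in libraries labelled siSTRN3, against 245, 238 and 250.5 TPM in siNC libraries. Its rescaled ranges, 213 to 223 and 188 to 202, were apart. With limma it differed by 0.15 ± 0.036 SE on the log2 scale (adjusted p = 0.0269); the call was lost without siSTRN3 replicate 2 or 3 or siNC replicate 1 or 2 (adjusted p = 0.0576 to 0.0792) and with no filter (0.478).

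The other beta genes did not pass. TUBB, the most abundant beta isotype, stood at 0.049 ± 0.022 SE (adjusted p = 0.159), although its rescaled values of 913, 941 and 933 in libraries labelled siSTRN3 lay above the 898, 891 and 904 of siNC libraries. TUBB2A had 30.6, 26.6 and 28.7 TPM in libraries labelled siSTRN3, against 41.5, 43.9 and 46.3 TPM in siNC libraries, and its log2 fold change was 0.03 ± 0.063 SE (adjusted p = 0.765). TUBB3 had 43.7, 42.2 and 37.9 TPM in libraries labelled siSTRN3, against 59.99, 56.7 and 62.2 TPM in siNC libraries, a log2 fold change of 0.12 ± 0.07 SE (adjusted p = 0.281) that stood at 0.18 without siSTRN3 replicate 3, 0.076 without siSTRN3 replicate 1 and 0.072 without siNC replicate 2. In both, the rescaled groups overlapped. TUBB6 was low and scattered, with 1.02, 3.88 and 0.49 TPM in libraries labelled siSTRN3, against 2.97, 2.24 and 2.01 TPM in siNC libraries, and its log2 fold change of -0.058 ± 0.45 SE (adjusted p = 0.939) ranged from -0.61 to 0.34 when single libraries were left out.

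**Figure D3:**
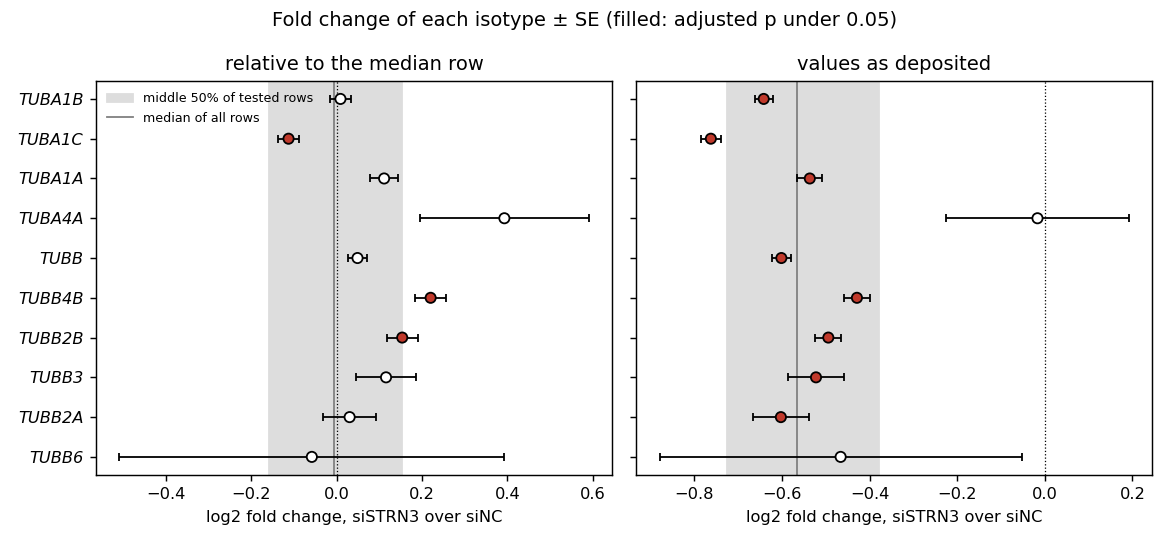
Log2 fold change ± SE of each isotype, siSTRN3 over siNC, relative to the median row (left) and as deposited (right); filled points have an adjusted p under 0.05, and the grey band holds the middle 50% of all tested rows around their median. On the left TUBB4B lies above the band, TUBB2B lies at its upper edge, TUBA1C lies inside it, and TUBA4A and TUBB6 have wide errors; on the right every isotype is below 0.

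The share of each isotype in its subunit sum is free of the scaling between libraries. TUBA1C made up 15.1%, 14.9% and 15.2% of the alpha sum in libraries labelled siSTRN3, against 16.5%, 16.3% and 16.0% in siNC libraries. TUBA1B made up 78.5% ± 0.112 in libraries labelled siSTRN3 and 77.8% ± 0.207 in siNC libraries (SD, n = 3 each), and TUBA1A 6.37% ± 0.0376 and 5.88% ± 0.0812. In each of these 3 the groups did not overlap. In the beta pool TUBB4B made up 23.3%, 23.5% and 22.7% in libraries labelled siSTRN3, against 21.5%, 21.0% and 21.6% in siNC libraries. TUBB made up 57.7% ± 0.714 in libraries labelled siSTRN3 and 59.96% ± 0.700 in siNC libraries, and TUBB2B 13.5% ± 0.108 and 13.02% ± 0.222, again without overlap. The shares of TUBA4A, TUBB2A, TUBB3 and TUBB6 overlapped between the groups. For the 6 without overlap an exact permutation test (2-sided) gave p = 0.1, which 3 against 3 cannot go below, and 0.167 when adjusted over the 10 isotypes, so none passes at this number of libraries. Shares within a subunit add up to its whole sum, so these 6 are not separate shifts. TUBB, for example, had a smaller share although its rescaled values lay above those of siNC libraries. Such shares were not computed for other genes, so the count of 6 has no background beside it.

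As a description, with pairs chosen after the values were seen, there were 0.765 ± 0.0240 TUBB4B transcripts per TUBA1C transcript in libraries labelled siSTRN3, against 0.607 ± 0.0149 in siNC libraries, and 0.402 ± 0.0121 TUBB4B per TUBB, against 0.356 ± 0.00965. TUBA1A per TUBA1C was 0.423 ± 0.00604 in libraries labelled siSTRN3, against 0.362 ± 0.0110 in siNC libraries (SD, n = 3 each). Of the 8 pairs computed, 2 overlapped between the groups: TUBB2B per TUBB2A was 6.08 ± 0.523 in libraries labelled siSTRN3 and 5.57 ± 0.278 in siNC libraries, and TUBB2B per TUBB3 4.21 ± 0.347 and 4.10 ± 0.0886. TUBA1B per TUBB was apart by almost nothing. Its highest value in libraries labelled siSTRN3 was 2.7625, and its lowest in siNC libraries was 2.76259.

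**Figure D4:**
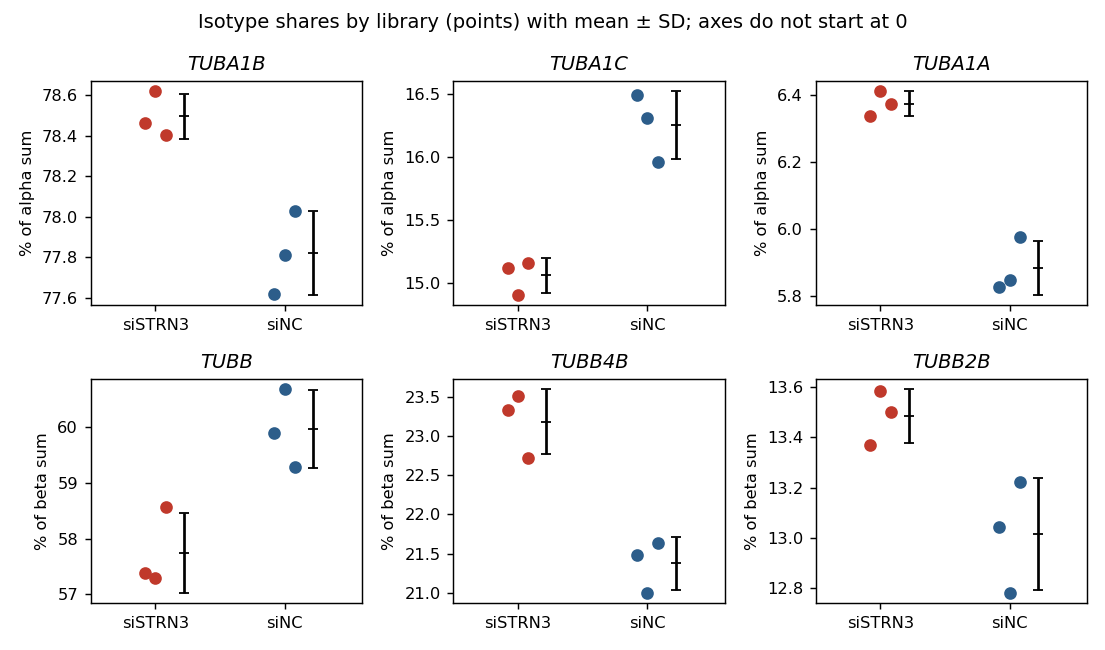
Share of the alpha or beta sum in each library (points) with mean ± SD for the 6 isotypes whose groups do not overlap, libraries labelled siSTRN3 at the left of each panel; axes do not start at 0. TUBA1C and TUBB hold smaller shares in libraries labelled siSTRN3, and TUBA1A, TUBA1B, TUBB4B and TUBB2B larger ones.

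Reads shared between isotypes limit how far single rows can be told apart, since no source used here states the strand setting or how reads with several matches were handled. Of all 50-base windows of the principal transcript, 87.1% of those of TUBA1B, 51.8% of TUBA1A and 40.1% of TUBA1C also occur in a transcript of another gene, and 65.5% of TUBB2A and 52.2% of TUBB2B. TUBA4A shares 32.6%, TUBB 30.8%, TUBB4B 14.6% and TUBB6 0.993%. These shares count any other gene, on either strand. Counting other members alone, they were 56.6% for TUBA1B, 51.7% for TUBA1A and 25.1% for TUBA1C. For the beta genes they were 60.3% for TUBB2A, 47.3% for TUBB2B, 8.66% for TUBB3, 5.92% for TUBB4B and 0.993% for TUBB6. TUBA4A and TUBB shared no such window with another member. The coding sequence of TUBA1B is 97.2% identical to that of TUBA1A and 96.8% to that of TUBA1C, and TUBB2A is 98.1% identical to TUBB2B. Exons of TUBA1C overlap AC125611.3 on the opposite strand over 666 bases. That row had 159 ± 5.79 TPM in libraries labelled siSTRN3 and 270 ± 8.39 TPM in siNC libraries (SD, n = 3 each), and its log2 fold change was -0.11 ± 0.037 SE (adjusted p = 0.0720). Summed with it TUBA1C stood at -0.11 ± 0.026 SE (adjusted p = 0.0252), and TUBB2B summed with TUBB2A at 0.14 ± 0.033 SE (adjusted p = 0.0298). Both calls held, but AC125611.3 had nearly the fold change of TUBA1C, and TUBB2B was far above TUBB2A (173 and 28.6 TPM in libraries labelled siSTRN3). These sums therefore could hardly end either call. TUBA1C was not summed with TUBA1B or TUBA1A alone, and the alpha sum stood at -0.0034 ± 0.022. Whether the TUBA1C call depends on reads shared between isotypes was not tested. TUBB3 shares 89.4% of its windows with any other gene, and all of these occur in AC092143.1, a row at 2.03 TPM that holds the same exons. Some of them occur in other members as well. Summed with AC092143.1, TUBB3 stood at 0.099 (limma adjusted p = 0.328). TUBB summed with TUBBP1, a pseudogene 97.4% identical in coding sequence, stayed at 0.049 (adjusted p = 0.156). Exons of TUBA4A overlap STK16 on the opposite strand over 627 bases, and the sum of both stood at 0.44 ± 0.15 SE (adjusted p = 0.0744). Exons of TUBA1A and TUBA1C overlap each other on opposite strands over 490 bases, so without a known strand setting reads there may count for either row. Opposite-strand overlaps also touch TUBB2B (174 bases of PSMG4) and TUBB6 (837 bases of AFG3L2, a row at 39.7 TPM).

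Of 48 other rows whose symbols begin with TUBA or TUBB, pseudogenes included, 30 were listed at 0 in every library and 45 stayed below 1 TPM; together they held 13.6 TPM in libraries labelled siSTRN3 and 17.9 TPM in siNC libraries. TUBB4A, a beta isotype of the brain, was among those tested and rose, with 7.09 ± 0.254 TPM in libraries labelled siSTRN3 and 7.65 ± 0.265 TPM in siNC libraries (log2 fold change 0.48 ± 0.063 SE, adjusted p = 0.00420; all 3 above all 3 after rescaling). As deposited it stood at -0.097 (adjusted p = 0.186). The others, the pseudogenes TUBA3FP (-0.39, adjusted p = 0.0756, and 0.0375 without siSTRN3 replicate 1) and TUBBP1 (0.17, adjusted p = 0.381), did not pass. Gamma-tubulin, which nucleates microtubules, came mainly from TUBG1 (66.8 ± 2.40 TPM in libraries labelled siSTRN3 and 107 ± 3.30 TPM in siNC libraries; -0.035 ± 0.045 SE, adjusted p = 0.627) with TUBG2 at a lower level (5.22 ± 0.842 and 7.82 ± 0.581 TPM; 0.052, adjusted p = 0.789). TUBD1 and TUBE1, the delta and epsilon tubulins of centrioles, stood at -0.12 (adjusted p = 0.538) and 0.028 (adjusted p = 0.836).

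Genes that fold, modify and organise tubulin were read from 6 lists of 94 genes, 85 of them tested. In all, 8 rose and 9 fell, 20.0% of those tested, beside 21.3% of all rows. In the chaperonin and prefoldin list 2 of 15 rose and 2 fell, with a median of 0.012. Those that rose were subunits of prefoldin, which hands nascent tubulin to the chaperonin, PFDN1 (36.6 ± 2.13 TPM in libraries labelled siSTRN3 and 37.5 ± 0.354 TPM in siNC libraries; log2 fold change 0.60 ± 0.045 SE, adjusted p = 5.96e-04) and PFDN5 (0.16, adjusted p = 0.0200). Those that fell were chaperonin subunits, CCT5 (386 ± 12.2 and 730.5 ± 29.6 TPM; -0.27 ± 0.032 SE, adjusted p = 0.00317) and CCT4 (-0.15, adjusted p = 0.0264). Among the cofactors that assemble the dimer 1 of 8 rose and 2 fell, with a median of -0.068. TBCA, which holds beta tubulin, rose (163 ± 6.60 and 213 ± 9.43 TPM; 0.27 ± 0.043 SE, adjusted p = 0.00797), while TBCE, which holds alpha tubulin (-0.23, adjusted p = 0.0398), and ARL2, the small GTPase that works with the cofactors (-0.21, adjusted p = 0.00755), fell. The call of CCT4 ended without siSTRN3 replicate 1 or 2 or siNC replicate 1 or 2 (adjusted p up to 0.0763), that of PFDN5 without siNC replicate 1 or 2 (0.0651) and that of TBCE without any library but siSTRN3 replicate 2 (0.124); with no filter the calls of PFDN5 (0.425) and TBCA (0.0520) ended.

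None of the 7 genes of the message feedback passed, with a median of 0.045. CNOT1, the scaffold of the CCR4-NOT complex, stood at 0.012 (adjusted p = 0.826), CNOT7, a deadenylase, at 0.28 (adjusted p = 0.165), and TTC5, named here for its role, at 0.16 ± 0.11 SE (4.94 ± 0.241 TPM in libraries labelled siSTRN3 and 6.83 ± 1.06 TPM in siNC libraries; adjusted p = 0.314). None of the 17 tested genes listed for tubulin modification passed, and their median was -0.020. Not all of them are known to act on tubulin as enzymes. The most abundant was TTLL12 (53.2 ± 1.15 and 91.7 ± 1.81 TPM; -0.13, adjusted p = 0.0512, but 0.0141 with no filter, 0.0110 over protein-coding rows and 0.0495 without siSTRN3 replicate 2). AGBL5, a tail deglutamylase, followed (15.3 ± 0.915 and 24.0 ± 0.577 TPM; adjusted p = 0.999). In the gamma-tubulin ring complex 2 of 12 rose and 0 fell, with a median of 0.037: MZT2A, a small subunit of the ring (0.19, adjusted p = 0.0104), and TUBGCP4 (0.30, adjusted p = 0.0300; up to 0.0961 without any library but siSTRN3 replicate 1). With no filter both calls ended (MZT2A 0.178, TUBGCP4 0.133).

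Among 26 tested proteins that bind the lattice or its ends or take microtubules apart, 3 rose and 5 fell, with a median of 0.031. STMN3, a stathmin that binds free dimers, rose (38.7 ± 1.01 TPM in libraries labelled siSTRN3 and 42.8 ± 1.21 TPM in siNC libraries; 0.49 ± 0.045 SE, adjusted p = 0.00129), as did MAP1B (9.56 ± 0.240 and 11.3 ± 0.510 TPM; 0.37, adjusted p = 0.00573). MAP1A, the related lattice protein, fell (3.49 ± 0.203 and 7.67 ± 0.247 TPM; -0.41, adjusted p = 0.00896), and MAP7D1, which binds kinesin-1, fell (-0.28, adjusted p = 0.0119). On the deposited scale none of the 85 genes was higher, and 13 of the chaperonin list, 8 cofactors, 6 feedback genes, 13 of the modification list, 11 ring genes and 24 of the last list were lower, where 80.8% of all tested rows were.

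**Figure D5:**
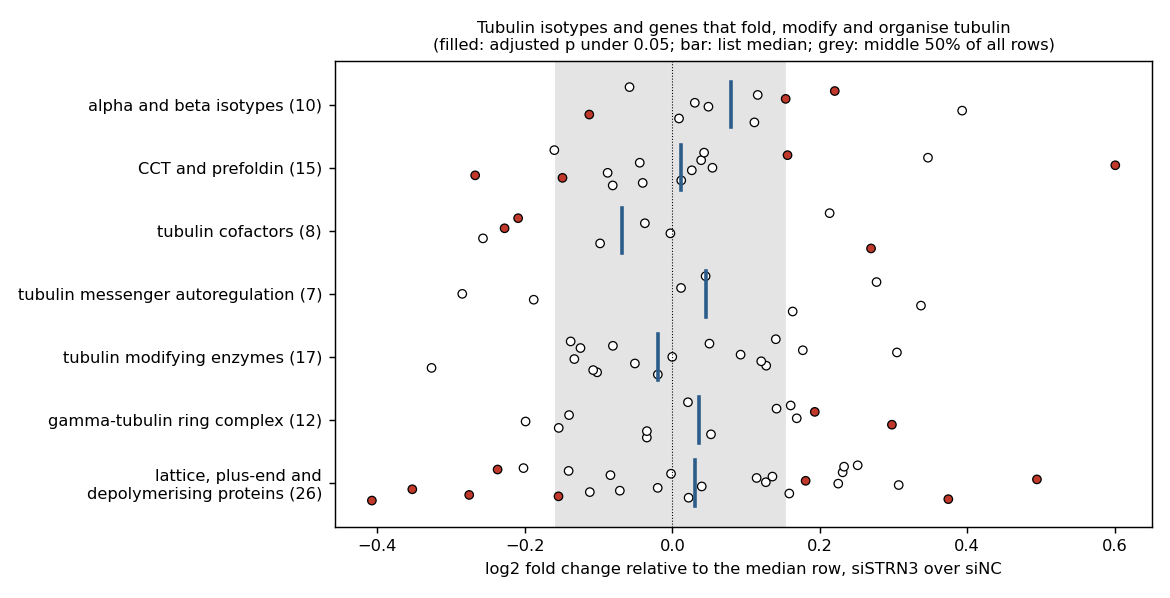
Log2 fold change relative to the median row of each tested gene in the 10 isotypes and the 6 lists, siSTRN3 over siNC, with filled points for an adjusted p under 0.05, a bar at each list's median and a grey band for the middle 50% of all rows. All list medians lie inside the band, and genes that rose and fell occur together in the chaperonin, cofactor and lattice lists.

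Of 7757 other protein-coding rows with a mean of at least 5 TPM, the 5 whose profile over the 6 libraries was nearest to the summed family were CNNM3, MAT2A, ENO1, CUTA and MYL12B. Their root mean square differences from it, after centring each on its own mean, were 0.010 to 0.014 on the log2 scale. Relative to the median row these 5 differed by 0.016 to 0.055 and the summed family by 0.031. They are thus rows that, like the family, changed little, and a link to tubulin was not tested.

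In the authors' deposited table, 0 of the 10 isotypes carry the authors' call, beside 0.0979% of all rows. Of the 10, 4 in the authors' deposited table had an adjusted p under 0.05, beside 7.32% of all 58233 rows, most of them too low to be tested here, and 31.7% of the 13004 tested rows: TUBB2B (5.43e-11), TUBB4B (1.84e-10), TUBA1C (6.73e-08) and TUBA1A (0.00317). The authors' deposited table gives no fold change beside these values.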

How the data were processed

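RNA sequencing of HGC-27 cells was analysed in 3 libraries labelled siSTRN3 and 3 labelled siNC. For 58233 gene rows the table deposited by the authors holds a TPM value for each library, as its headers say; 2 rows without a gene were left out. The rows used summed to 966433 to 968756 TPM in libraries labelled siSTRN3 and 985805 to 987429 TPM in siNC libraries. Per the submitters' processing notes, the tools were HISAT2, RSEM and Cufflinks, with no roles, and the build was GRCh38.p10. The deposited table also holds the authors' p-value for each row and its adjusted form. No source used here names the annotation release.

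The test, limma-trend on log2(TPM + 1), had no block and took rows reaching 1 TPM in 3 or more libraries (limma 3.58.1, R 4.3.3, and the R package data.table, version 1.17.8), after rescaling to an equal median. The replicate numbers were not used to pair the libraries, and the labels do not say whether they do. On the log2(TPM + 1) scale changes of low genes are understated. Single ratios and shares were tested by exact permutation; sums were not tested. The fit was tested on simulated data for this comparison, 13004 rows with 200 changed: 59 of 100 rows changed 1.5-fold, 81 of 100 changed 2-fold and 5 of 12804 unchanged ones were called. The isotype changes that passed were smaller than 1.5-fold. In the data 21.3% of rows were called, far more than were changed in the simulation, whose rows were drawn at all levels. The simulated rates therefore do not give the power for the isotype calls.

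The members and gene lists were chosen with earlier results of these data known. All members are named; from a list, genes past the threshold are named, 4 at most by adjusted p, and where none passed the 2 with the highest mean. Sums of overlapping or near-identical rows were alternatives chosen after seeing the data. Copies were sought with blastn (BLAST+ 2.17.0; 95% identity over 50% of the coding sequence), and identities come from global alignment (Biopython 1.88). Plots were drawn with matplotlib 3.10.9 and tables made with pandas 2.3.3 and numpy 2.4.6 under Python 3.11.15. Some coding sequences are not reported here.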

Additional observations from a re-analysis of the deposited data

How the results depend on the processing

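The scale decides the direction of most isotypes. As deposited, TUBA1A (-0.54), TUBA1B (-0.64), TUBB (-0.60), TUBB2A (-0.60), TUBB2B (-0.49), TUBB3 (-0.52) and TUBB4B (-0.43) were lower. In all, 0 isotypes were higher and 8 lower, and 10643 rows passed. The log2 differences of the sums were -0.65 for alpha, -0.55 for beta and -0.62 for all. The median of -0.57 over all rows, understated by low rows, is not directly comparable with these sums. With TPM recomputed over protein-coding rows the sums stood at -0.055, 0.052 and -0.020, and with no filter on low values, where the median is taken over more and lower rows, at -0.10, 0.0018 and -0.071; without the filter 0 isotypes were called higher. Signs of isotypes that did not pass also turned: TUBA4A stood at -0.017 as deposited, TUBA1B, TUBB and TUBB2A at -0.042, -0.0020 and -0.019 over protein-coding rows and at -0.092, -0.053 and -0.068 without the filter. With single libraries left out TUBA1B ranged from -0.0094 to 0.026, TUBB2A from -0.016 to 0.075 and TUBB6 from -0.61 to 0.34. The causes were not tested. Leaving out single libraries gave 1485 to 2128 called rows (1485, 1529 and 1577 without siNC replicate 1, 2 and 3, against 2772 with all libraries), 1 to 3 isotypes higher and 0 to 1 lower. The replicate number as a block gave 1745 rows, 1 isotype higher (TUBB4B, limma adjusted p = 0.0419) and 0 lower. The block ended the calls of TUBA1C (0.0610), TUBB2B (0.0740), CCT4 (0.0763), PFDN5 (0.0597), TBCE (0.0924) and TUBGCP4 (0.0644), and CNOT7 passed (0.0381). Same-numbered libraries deviated with correlations of 0.057, -0.021 and -0.080, and not every library correlated best with its own number. With so few libraries these correlations cannot decide whether the numbers pair the libraries. The main fit treats the libraries as unpaired. The alpha over beta ratio differed by -0.161 to -0.147 when single libraries were left out. Adding the other TUBA and TUBB rows or a filter of 5 TPM changed no sum beyond the spread between libraries. A pseudocount of 0.1 cannot move sums of this size, so their stability under it carries no information. The 5 TPM filter gave 3 isotypes higher, TUBA1A added, and with a pseudocount of 0.1 TUBA4A stood at 0.61 (adjusted p = 0.196).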
